A study of Mus musculus with 15 samples.

Results

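Calcineurin is the calcium- and calmodulin-dependent protein phosphatase of the heart muscle cell, and the 10 genes described here make up its core and its nearest partners. They were taken by name, but with earlier results of these data known. The list holds the catalytic subunit genes Ppp3ca and Ppp3cb, the regulatory subunit gene Ppp3r1 and the regulators of calcineurin Rcan1 and Rcan2. It also holds the transcription factor genes Nfatc1, Nfatc2, Nfatc3 and Nfatc4, and Myoz2. All 10 were found among the 40174 gene symbols of the count tables, and all 10 passed the filter on low counts that left 17588 genes for testing.

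When calcium rises, calmodulin activates calcineurin, which removes phosphate from NFAT proteins and lets them enter the nucleus. In the heart this route is known for driving hypertrophic growth. RCAN proteins bind calcineurin and can restrain it, and a short transcript of Rcan1 that starts inside the gene is itself switched on by NFAT, so that Rcan1 RNA is often read as a trace of calcineurin activity. Myoz2 encodes calsarcin-1, a protein of the sarcomere's Z-disc that tethers calcineurin and dampens its signal.

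RNA came from left ventricles of C57BL/6 mice aged 2 months that carried point mutations in Rbm20, the gene of a splicing regulator of muscle. The mice were wild type (WT), heterozygous (HET, Rbm20 S639G +/-) or homozygous (HOM, Rbm20 S639G -/-) for the S639G allele in the G-line, and heterozygous (Rbm20 S637A +/-) or homozygous (Rbm20 S637A -/-) for the S637A allele in the A-line. The labels give 3 libraries to each of the 5 groups and do not say that each is another animal. The spread that p-values use may therefore be technical. A-line HOM replicates 2 and 3 had the same count as WT replicates 2 and 3 in each of the 40174 symbols. Each was used once, as WT, so that 13 distinct libraries remained, with 3 in each group except A-line HOM, which had 1. The labels do not settle which name is right, so this choice enters each contrast that uses WT or A-line HOM. Through the spread that all groups share in 1 fit, it also enters the p-values of the other contrasts. Replicate numbers in the text are those of the labels.

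Library totals ran from 12959087 to 29436407 counts, and the A-line libraries were shallower than all others, with at most 17507813. Mitochondrial ribosomal RNA made up 20.2 to 23.4% of the WT totals but 10.8 to 17.1% of the mutant ones, and leaving it out of the totals changed none of the calls against WT for the 10 genes. The cardiomyocyte markers fit the labelled tissue, with 6 genes summing to 35738 to 49947 CPM (counts scaled to a common library total) in every library. Transcripts of atrial muscle stood out in 3 libraries. Their marker Myl7 reached 524 CPM in WT replicate 2, 240 CPM in replicate 3 of A-line HET and 45.8 CPM in replicate 1 of G-line HOM, and at most 3.43 CPM elsewhere. In the same order, 3 fat cell markers summed to 35.0, 4.89 and 4.88 CPM in these libraries, and to at most 0.29 CPM elsewhere. For 4 smooth muscle markers the sums were 248, 310 and 278 CPM, and at most 103 CPM elsewhere. The 8 markers of T and B cells summed to no more than 6.49 CPM in any library. CPM values were scaled by edgeR's TMM factors, log2 fold changes are given ± SE, and a gene is said to rise or fall where the adjusted p of edgeR's quasi-likelihood test, over all 17588 genes, was under 0.05.

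The regulatory subunit gene Ppp3r1 fell in the 3 replicated mutant groups and was also called lower in the 1 A-line HOM library. In G-line HOM 3 other members fell and Rcan1 rose. Every test of A-line HOM takes its spread from the other groups, since a lone library has none, and assumes that this library varies as they do. Of the 10 genes, 5 passed the test in G-line HOM against WT (1 higher, 4 lower), 1 in G-line HET (lower), 2 in A-line HET (lower) and 1 in the A-line HOM library (lower). Over all genes tested, 26.4% were called in G-line HOM (13.1% higher, 13.3% lower) and 7.52% in G-line HET (3.97% higher, 3.54% lower). The shares were 7.96% in A-line HET (3.99% higher, 3.97% lower) and 4.68% in A-line HOM (2.82% higher, 1.86% lower), so the 1 call in G-line HET and the 1 call in A-line HOM are close to these shares. For 4 of the 10 genes, every one of the 10 mutant libraries lay outside the WT range on the same side: Rcan1 above it, and Ppp3ca, Ppp3r1 and Myoz2 below it. Such a separation held for 11.7% of all genes tested (5.46% above, 6.23% below). Group by group, libraries did not overlap with WT for 6 of the 10 genes in G-line HOM (41.7% of all genes), 5 in G-line HET (31.5%), 6 in A-line HET (26.1%) and 8 in A-line HOM (67.8%), where 1 library is compared with 3.

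**Figure D1:**
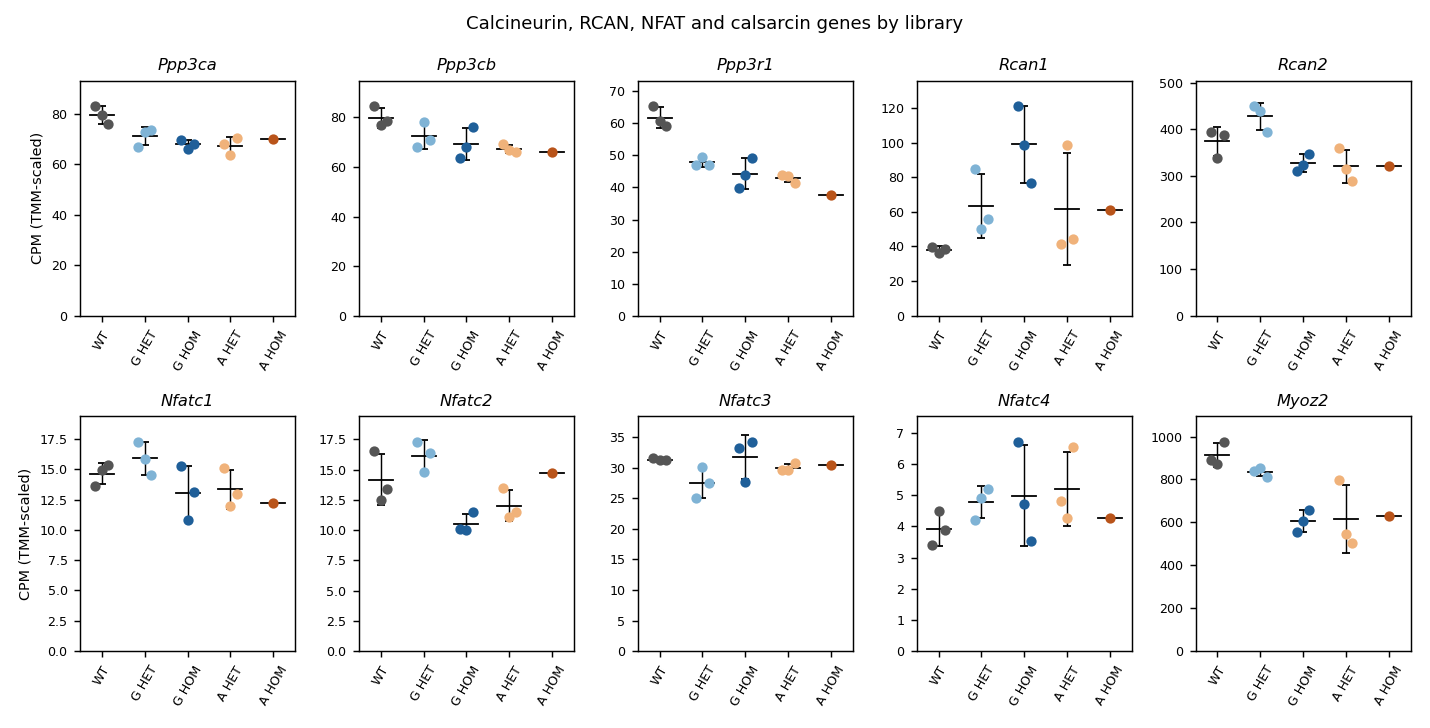
Expression of each of the 10 genes in CPM (TMM-scaled, y axes from 0) for every library of the 5 groups. Points are libraries, horizontal lines group means and error bars SD, with no SD for the 1 A-line HOM library; all mutant libraries lie above WT for Rcan1 and below WT for Ppp3ca, Ppp3r1 and Myoz2.

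Calcineurin is a pair of a catalytic A subunit and a calcium-binding B subunit, and the B subunit of heart muscle is the product of Ppp3r1. Ppp3r1 stood at 65.4, 60.6 and 59.1 CPM in WT replicates 1 to 3. It stood at 47.1, 49.6 and 47.0 CPM in G-line HET, 39.7, 43.8 and 49.3 CPM in G-line HOM, 43.8, 43.6 and 41.4 CPM in A-line HET and 37.8 CPM in the A-line HOM library. No mutant library reached the lowest WT library. The 2 HET groups and G-line HOM lay close together, and A-line HOM was the lowest of all libraries.

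Against WT, Ppp3r1 fell by a log2 fold change of -0.48 ± 0.09 in G-line HOM (adjusted p = 0.00109), a ratio of 0.717 to WT. It fell by -0.36 ± 0.09 in G-line HET (adjusted p = 0.021), -0.52 ± 0.09 in A-line HET (adjusted p = 0.00266) and stood at -0.71 ± 0.13 in the single A-line HOM library (adjusted p = 0.00749, with the spread of the other groups). A second mutated copy added -0.11 ± 0.09 in the G-line (adjusted p = 0.412) and -0.19 ± 0.13 in the A-line (adjusted p = 0.999), neither past the threshold. In G-line HET the call did not hold without WT replicate 1 (adjusted p = 0.102), G-line HET replicate 1 (0.091) or G-line HET replicate 3 (0.0737). With the shared libraries left out, the call held in G-line HOM (adjusted p = 0.016) and was lost in G-line HET (0.111), A-line HET (0.0511) and A-line HOM (0.0583). With those libraries used as A-line HOM instead, none of the 4 calls held (adjusted p = 0.102 to 0.986). The log2 fold changes were then larger in G-line HOM (-0.56), G-line HET (-0.45) and A-line HET (-0.61), against 1 WT library, and smaller in A-line HOM (-0.31).

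In the GENCODE M21 annotation Ppp3r1 overlaps Wdr92 on the same strand, and the counting rule for such overlaps is not given in the sources used here. Wdr92 was at 9.36 to 14.5 CPM over the 13 libraries, with 12.97 to 13.4 CPM in WT and 9.38, 10.9 and 13.5 CPM in G-line HOM. Of the 10 mutant libraries, 7 were below the lowest WT value of Wdr92, among them A-line HOM at 10.1 CPM, and its part in the Ppp3r1 values was not tested.

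The catalytic subunit genes were lower by smaller amounts. Ppp3ca was at 82.9, 79.6 and 76.0 CPM in WT and at 69.6, 66.1 and 68.0 CPM in G-line HOM. Its highest mutant library, G-line HET replicate 3 at 73.5 CPM, was below the lowest WT library. Ppp3ca fell in G-line HOM (-0.23 ± 0.08, adjusted p = 0.0401). This call is the weakest of the 5, held in 3 of 16 alternative analyses, and was lost without any 1 of the 6 libraries compared (adjusted p = 0.0557 to 0.138). Ppp3ca did not pass the test in A-line HET (-0.24 ± 0.08, adjusted p = 0.0694), G-line HET (-0.16 ± 0.08, adjusted p = 0.223) or A-line HOM (-0.19 ± 0.11, adjusted p = 0.398).

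Ppp3cb, which encodes the beta form of the catalytic subunit, the form known to be needed for hypertrophic growth of the mouse heart, gave values of the same size without a call. It was at 84.5, 76.9 and 78.3 CPM in WT, 63.5, 67.9 and 76.3 CPM in G-line HOM and 69.1, 66.8 and 66.0 CPM in A-line HET. The log2 fold changes were -0.21 ± 0.09 in G-line HOM (adjusted p = 0.0942), -0.14 ± 0.09 in G-line HET (0.359), -0.25 ± 0.09 in A-line HET (0.104) and -0.28 ± 0.13 in A-line HOM (0.247). Of the 10 mutant libraries, 9 were below the lowest WT library, and the exception was G-line HET replicate 2 at 78.0 CPM.

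Per kilobase of merged exons in GENCODE M21, the 2 catalytic genes had nearly the same level. In WT, Ppp3ca had 15.9 to 17.3 and Ppp3cb 16.1 to 17.7 CPM per kilobase, ranges that overlap. Ppp3r1 was above both in WT, at 20.7 to 22.9 CPM per kilobase. In G-line HOM this order was no longer clear: Ppp3r1 covered 13.9 to 17.3, Ppp3ca 13.8 to 14.5 and Ppp3cb 13.3 to 15.9 CPM per kilobase. In the A-line HOM library Ppp3r1 was the lowest of the 3, at 13.2 against 14.6 and 13.8 CPM per kilobase. The annotation used for these lengths is of an older build than the counts, so levels between genes are approximate.

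**Figure D2:**
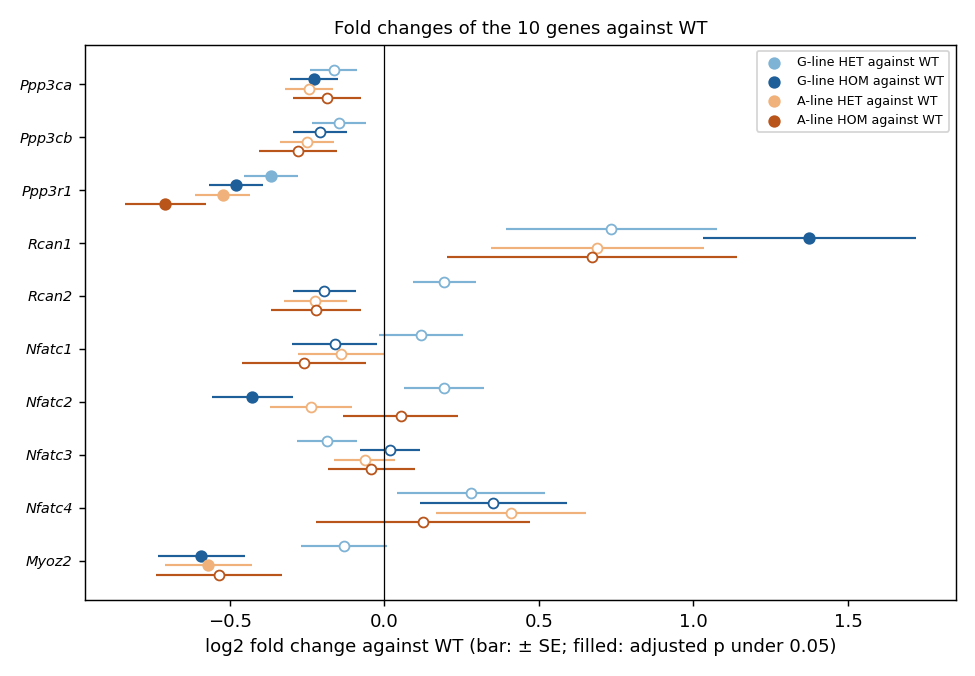
Log2 fold change against WT (x axis) of the 10 genes in the 4 mutant groups; bars are ± SE and filled points had an adjusted p under 0.05 (edgeR quasi-likelihood test). Ppp3r1 is filled in all 4 groups, and Rcan1 stands farthest to the right, at 1.37 in G-line HOM.

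Rcan1 was the only one of the 10 genes that rose. It was at 39.6, 36.1 and 38.8 CPM in WT, 84.7, 50.0 and 55.8 CPM in G-line HET, and 121, 98.8 and 76.9 CPM in G-line HOM. In A-line HET it was at 41.6, 98.8 and 44.0 CPM, and in A-line HOM at 60.8 CPM. The 3 WT libraries lay within a narrow range, while the mutant libraries were spread widely and A-line HET replicates 1 and 3 lay just above WT.

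In G-line HOM against WT, Rcan1 rose by a log2 fold change of 1.37 ± 0.34, or 2.59-fold (adjusted p = 0.0162). The group means followed the order WT (38.2 ± 1.80 CPM, SD, n = 3), A-line HOM (60.8 CPM), A-line HET (61.5 ± 32.3 CPM), G-line HET (63.5 ± 18.6 CPM) and G-line HOM (98.9 ± 22.1 CPM). Only the step from WT separated neighbouring groups in this order; G-line HOM and G-line HET overlapped in their libraries and did not differ past the threshold (0.64 ± 0.34, adjusted p = 0.242). Values against WT were 0.73 ± 0.34 in G-line HET (adjusted p = 0.247), 0.69 ± 0.34 in A-line HET (0.285) and 0.67 ± 0.47 in A-line HOM (0.504). The G-line HOM call was lost without G-line HOM replicate 1 (adjusted p = 0.0592), WT replicate 3 (0.0509), the 3 libraries with atrial transcripts (0.12) or the shared libraries (0.187), while the log2 fold change stayed between 1.17 and 1.53 in all 16 alternative analyses.

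The highest Rcan1 value of G-line HOM and the highest of A-line HET came from the 2 libraries with high RNA of Arntl, a gene of the circadian clock. Arntl, a core clock gene, reached 24.6 CPM in replicate 1 of G-line HOM. It reached 29.04 CPM in replicate 2 of A-line HET, and lay between 1.17 and 5.28 CPM in the other 11 libraries. These 2 are called libraries with shifted clock genes below, a name given by Arntl alone (20 CPM or more). The 6 clock genes summed to 132 CPM in the first, within the WT range of 127 to 160 CPM, and to 92.5 CPM in the second. A sum can hide opposite changes. In replicate 2 of A-line HET, Dbp (5.71 CPM), Per1 (9.91), Per2 (2.97) and Nr1d1 (39.7) were the lowest of that group and Npas2 (5.19) the highest. In replicate 1 of G-line HOM, Dbp (10.2 CPM) and Per2 (12.4) were the lowest of that group and Npas2 (4.75) the highest. Per1 and Nr1d1 in that library lay between those of the other replicates. Without these 2 libraries, an alternative chosen after the data were seen, Rcan1 was higher in G-line HOM by 1.203 (adjusted p = 0.00192) and in G-line HET by 0.73 (adjusted p = 0.0307). The SE in G-line HOM was then 0.19, against 0.34 with all libraries. Without G-line HOM replicate 1 alone the value was also 1.203, but with SE 0.38 (adjusted p = 0.0592). In G-line HET the value stayed at 0.73 while the SE went from 0.34 to 0.18. The lower p-value in G-line HOM thus came with leaving out A-line HET replicate 2, an Rcan1 outlier of another group. In A-line HET, with both libraries left out, Rcan1 was higher by 0.16 (adjusted p = 0.729), so its mean in that group rests on replicate 2. The 6 immediate-early genes, which respond within minutes to stimulation, summed to 256 CPM in the A-line HOM library, 34.5 to 66.5 CPM in the other mutant libraries and 20.5 to 31.6 CPM in WT. Rcan1 in the A-line HOM library, at 60.8 CPM, was near the means of both HET groups. It was near no A-line HET library, lying above replicates 1 and 3 (41.6 and 44.0 CPM) and below replicate 2 (98.8 CPM). Of 5 immediate-early genes tested, 3 were called higher in G-line HOM against WT (13.1% of all genes), 4 in A-line HOM (2.82%), and 1 each in G-line HET (3.97%) and A-line HET (3.99%). The part of these genes' state in the Rcan1 values was not otherwise tested.

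**Figure D3:**
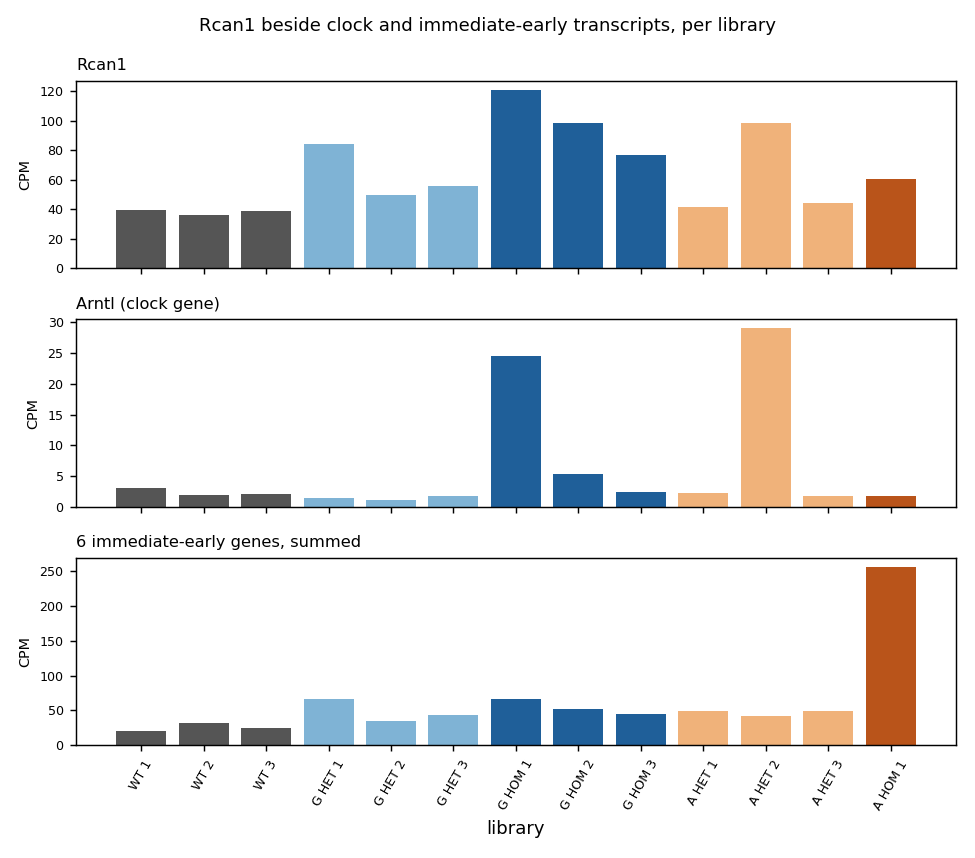
Bars give the CPM of Rcan1, of the clock gene Arntl and of 6 immediate-early genes summed (Fos, Fosb, Jun, Junb, Egr1, Atf3) in each of the 13 libraries, coloured by group. Rcan1 peaks at 121 CPM among G-line HOM and at 98.8 CPM among A-line HET libraries, in the 2 libraries with Arntl above 20 CPM, while the immediate-early sum peaks at 256 CPM in the A-line HOM library.

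The RefSeq table holds 2 transcription starts of Rcan1, and the gene totals used here do not tell their transcripts apart. The starts are shown because only the inner one is known to respond to NFAT. The 250 bases before each are printed 5′ to 3′ on the gene's strand (minus), from the RefSeq table of build GRCm38.p6, with the core of the NFAT site, GGAAA or TTTCC on the other strand, in capitals. The outer start has the window chr16:92466170-92466419 and the inner start chr16:92400079-92400328. The windows of Ppp3r1 (chr11:17159048-17159297, plus strand) and Myoz2 (chr3:123034988-123035237, minus strand), whose levels fell, follow for comparison.
Rcan1, outer start: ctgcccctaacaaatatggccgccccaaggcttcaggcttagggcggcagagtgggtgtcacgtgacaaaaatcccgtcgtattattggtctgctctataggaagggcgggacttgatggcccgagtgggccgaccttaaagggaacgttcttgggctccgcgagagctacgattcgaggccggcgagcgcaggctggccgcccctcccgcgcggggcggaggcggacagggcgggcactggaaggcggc
Rcan1, inner start: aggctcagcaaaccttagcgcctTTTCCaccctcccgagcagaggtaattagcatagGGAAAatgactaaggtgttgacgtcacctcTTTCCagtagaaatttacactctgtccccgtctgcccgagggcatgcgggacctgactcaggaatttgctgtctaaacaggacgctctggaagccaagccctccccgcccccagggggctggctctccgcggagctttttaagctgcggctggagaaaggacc
Ppp3r1: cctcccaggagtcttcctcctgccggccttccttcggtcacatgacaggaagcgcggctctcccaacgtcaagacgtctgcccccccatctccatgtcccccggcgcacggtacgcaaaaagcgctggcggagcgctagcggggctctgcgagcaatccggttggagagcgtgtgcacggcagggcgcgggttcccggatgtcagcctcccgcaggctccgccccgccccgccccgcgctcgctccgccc
Myoz2: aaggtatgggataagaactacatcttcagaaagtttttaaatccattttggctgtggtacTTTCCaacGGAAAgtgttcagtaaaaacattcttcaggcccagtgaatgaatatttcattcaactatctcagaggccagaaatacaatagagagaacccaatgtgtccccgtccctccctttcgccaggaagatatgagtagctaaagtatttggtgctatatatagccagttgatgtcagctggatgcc
The inner Rcan1 window held 3 matches to the core, 1 as GGAAA and 2 as TTTCC, and the outer window held 0. Among 32851 promoter windows of this length, 6.39% held 3 or more matches. Myoz2 held 2 matches, as did or exceeded 21.4% of windows, and Ppp3r1 held 0. Of the other members with windows, the first Nfatc2 start, Nfatc4 and Ppp3cb held 3 each, so matches occurred before genes that rose, fell or did not pass the test. A match describes the sequence and is not a binding site.

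An antisense gene, Gm46555, overlaps Rcan1 in GENCODE M21, and whether counting used strand is not given in the sources used here. Gm46555 was at 5.84 to 9.66 CPM over all libraries and its G-line HOM values, 8.57, 5.84 and 6.72 CPM, lay on both sides of the WT values of 6.49, 6.51 and 6.96 CPM.

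Rcan2, the other regulator of calcineurin measured here and a gene with known high expression in muscle, did not follow Rcan1. It was at 395, 338 and 388 CPM in WT, 450, 439 and 394 CPM in G-line HET, and 310, 323 and 348 CPM in G-line HOM. A-line HET had 359, 314 and 288 CPM and A-line HOM 321 CPM. The G-line HOM and WT ranges overlapped, and no comparison with WT passed the test (adjusted p = 0.183 to 0.458). Between the G-line groups Rcan2 was lower in HOM than in HET, by -0.39 ± 0.10 (adjusted p = 0.0221), and the libraries did not overlap. That call was lost without G-line HET replicate 1 (adjusted p = 0.0807) or 2 (0.0735) or G-line HOM replicate 1 (0.0766) or 2 (0.0772), without the libraries with atrial transcripts (0.0504) and without those with shifted clock genes (0.083). The call was also lost with the shared libraries used as A-line HOM. A-line HET was below G-line HET without overlap (-0.42 ± 0.10, adjusted p = 0.144, and 0.0165 with DESeq2).

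Per kilobase of merged exons, Rcan2 RNA exceeded Rcan1 RNA in every group. In WT the values were 77.4 to 90.4 for Rcan2 and 13.01 to 14.3 CPM per kilobase for Rcan1. In G-line HOM they were 70.8 to 79.6 and 27.7 to 43.6 CPM per kilobase, so the 2 ranges were closer but still apart.

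The 4 NFAT genes encode the transcription factors that calcineurin activates. Only 1 of them, Nfatc2, was called in G-line HOM against WT, near the share of all genes called there (26.4%). Nfatc2 was at 16.5, 12.5 and 13.4 CPM in WT, 17.3, 14.8 and 16.4 CPM in G-line HET, and 10.1, 10.04 and 11.5 CPM in G-line HOM. A-line HET stood at 13.5, 11.1 and 11.5 CPM and A-line HOM at 14.7 CPM. The G-line HOM libraries were below every WT and every G-line HET library.

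Nfatc2 fell in G-line HOM against WT (-0.43 ± 0.13, adjusted p = 0.026) and against G-line HET (-0.62 ± 0.13, adjusted p = 0.00818). The first call did not hold without WT replicate 1 (adjusted p = 0.134) or without replicate 1 (0.081) or 2 (0.0898) of G-line HOM, with the 3 libraries with atrial transcripts left out (0.0628), without the 2 libraries with shifted clock genes (0.083) and in a fit of the 2 groups alone (0.0553). The second, which uses no WT library, held without the atrial libraries (adjusted p = 0.0373) and without the 2 clock-shifted ones (0.0351). In the A-line the HOM library was above the HET libraries (0.29 ± 0.19, adjusted p = 0.999). The effect of the second copy differed between the lines by -0.91 ± 0.23, which did not pass the test (adjusted p = 0.147).

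The other 3 NFAT genes did not pass the test in any of the 7 comparisons. Nfatc3 was at 31.5, 31.2 and 31.3 CPM in WT, 25.1, 30.1 and 27.5 CPM in G-line HET and 33.3, 27.6 and 34.3 CPM in G-line HOM, with log2 fold changes of 0.018 ± 0.10 in G-line HOM (adjusted p = 0.913) and -0.19 ± 0.10 in G-line HET (0.29). Nfatc1, which is expressed in endothelial and endocardial cells as well, was at 13.7 to 15.3 CPM in WT, 10.8 to 15.3 CPM in G-line HOM and 14.5 to 17.3 CPM in G-line HET. Its log2 fold change in G-line HOM was -0.16 ± 0.14 (adjusted p = 0.435). Nfatc4 had only 61 to 215 counts per library. It was at 3.39 to 4.50 CPM in WT and 3.52 to 6.72 CPM in G-line HOM, and its log2 fold changes against WT lay between 0.13 and 0.41 with SE of 0.24 to 0.35. The value in G-line HOM went from 0.35 to 0.067 without the 2 libraries with shifted clock genes.

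Per kilobase of merged exons, Nfatc3 had the highest RNA level of the 4 NFAT genes in WT, at 5.06 to 5.11 CPM per kilobase. Nfatc1 (1.84 to 2.06) and Nfatc2 (1.497 to 1.98) overlapped, and Nfatc4 (0.807 to 1.07) was lowest. In G-line HOM the order was Nfatc3, Nfatc1, Nfatc2 and Nfatc4 by mean, and Nfatc2 (1.2 to 1.37) overlapped Nfatc4 (0.838 to 1.60).

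Myoz2, the calsarcin-1 gene, fell in both G-line HOM and A-line HET. It was at 892, 872 and 977 CPM in WT, 841, 851 and 814 CPM in G-line HET, and 556, 608 and 655 CPM in G-line HOM. In A-line HET it was at 798, 545 and 506 CPM and in A-line HOM at 631 CPM. All mutant libraries were below WT, but the G-line HET libraries only slightly so, and A-line HET replicate 1 lay near them.

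Myoz2 fell by -0.59 ± 0.14 in G-line HOM (ratio 0.664, adjusted p = 0.00619), a call that held in 14 of 16 alternative analyses, all but the 2 that changed the use of the shared libraries (adjusted p = 0.0974 and 0.17). In A-line HET it fell by -0.57 ± 0.14 (adjusted p = 0.0228), but not without WT replicate 1 (0.0642), WT replicate 3 (0.103), A-line HET replicate 2 (0.107) or A-line HET replicate 3 (0.108). The A-line HET call held in 7 of 16 alternative analyses. It was also lost without the libraries with atrial transcripts (0.104), without those with shifted clock genes (0.101) and in a fit of the 2 groups alone (0.082). It was lost as well with the shared libraries left out (-0.54) or used as A-line HOM (-0.53), log2 fold changes against 1 WT library. The values in G-line HET (-0.13 ± 0.14, adjusted p = 0.651) and A-line HOM (-0.53 ± 0.20, adjusted p = 0.165) did not pass. G-line HOM was lower than G-line HET (-0.46 ± 0.14, adjusted p = 0.0405), and this call was lost without any 1 of the G-line HET libraries or G-line HOM replicates 1 or 2 (adjusted p = 0.0827 to 0.132). It held in 6 of 16 alternative analyses. It was also lost without the libraries with atrial transcripts (adjusted p = 0.0891) or with shifted clock genes (0.125). The replicate block (0.066) and both changes to the use of the shared libraries lost it too. A-line HET against G-line HET gave -0.44 ± 0.14 (adjusted p = 0.215), and -0.67 without A-line HET replicate 1 (adjusted p = 0.00533).

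Myoz2 is a gene of the cardiomyocyte, and some cardiomyocyte markers were lower in G-line HOM too. The 6 markers summed to 45551 to 49947 CPM in WT and 35738 to 39234 CPM in G-line HOM, and 3 of the 6 (Myh6, Tnni3 and Ryr2) fell in G-line HOM, beside 13.3% of all genes. Myh6, the alpha myosin heavy chain gene, went from a mean of 24570 to 16850 CPM, while Tnnt2 was at 4020 and 5021 CPM (adjusted p = 0.0865). In A-line HET, where Myoz2 also fell, 0 of the 6 were called by edgeR (3 at an unadjusted p under 0.05, all with negative log2 values), and their sum was 36945 to 46198 CPM. The 6 fibroblast markers summed to 676 to 1155 CPM in WT and 1565 to 2106 CPM in G-line HOM, and 4 of the 6 rose, beside 13.1% of all genes. Endothelial markers summed to 711 to 829 CPM in WT and 626 to 732 CPM in G-line HOM, with 0 of 6 called (edgeR). In bulk tissue, fewer cells of a type and less RNA per cell cannot be told apart, and the part of cell makeup in the lower values of Myoz2, Ppp3r1, Ppp3ca and Nfatc2 was not tested.

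**Figure D4:**
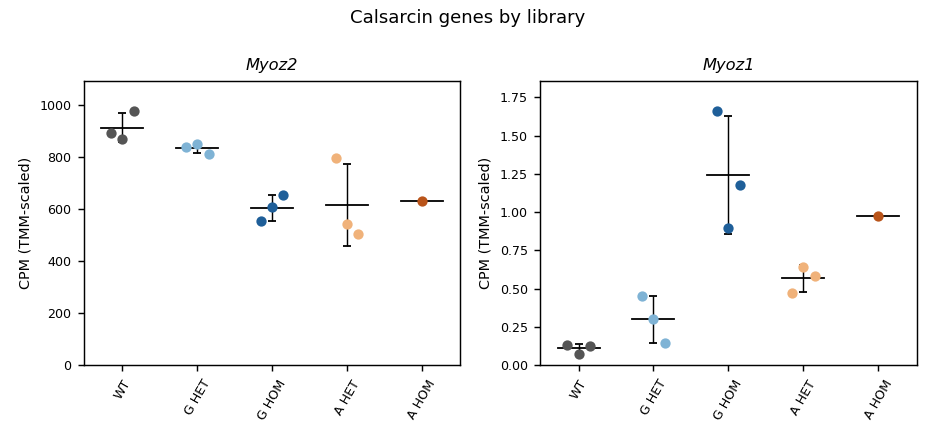
Myoz2 and Myoz1 in CPM (TMM-scaled, y axes from 0, different scales) for every library of the 5 groups; points are libraries, lines means and error bars SD. Myoz2 falls from 872 to 977 CPM in WT to 556 to 655 CPM in G-line HOM, while Myoz1, with 2 or 3 counts in each WT library, reaches 1.66 CPM.

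The other calsarcin genes and the other genes of the route were counted from a list of 39 genes arranged by role. Of these, 37 passed the filter; Ppp3r2, the testis form of the B subunit, and Myoz3, the third calsarcin, had at most 2 and 5 counts in a library. In G-line HOM against WT 4 rose, 4 fell and 29 did not pass, beside 26.4% of all genes called, with a median log2 fold change of -0.039 against 0.007 over all genes. In G-line HET 4 rose and 0 fell (3.97% and 3.54% of all genes). In A-line HET 2 rose and 2 fell (3.99% and 3.97%), and in the A-line HOM library 1 was called higher and 0 lower (2.82% and 1.86%).

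Myoz1, the calsarcin of fast skeletal muscle, rose in G-line HOM and A-line HET from a trace level and was called higher in the single A-line HOM library. It had 3, 2 and 3 counts in WT, 53, 19 and 25 counts in G-line HOM, 6, 11 and 11 counts in A-line HET and 17 counts in A-line HOM. The log2 fold changes were 3.46 ± 0.51 in G-line HOM (adjusted p = 0.000225), 2.33 ± 0.55 in A-line HET (0.0186) and 3.09 ± 0.66 in A-line HOM (0.0166), and Myoz1 was higher in G-line HOM than in G-line HET (2.04 ± 0.44, adjusted p = 0.00888). Its level in G-line HOM, 0.90 to 1.66 CPM, remained a small part of that of Myoz2. Skeletal muscle markers, 5 genes, summed to 117 to 332 CPM in WT and 239 to 758 CPM in G-line HOM. Nearly all of this sum was Acta1, with means of 190 CPM in WT and 456 CPM in G-line HOM. Tnnt3 had means of 0.27 and 4.14 CPM. Myh1, Myh2 and Myh4 reached at most 0.28 CPM in any WT or G-line HOM library. The part of these markers in the Myoz1 value was not tested.

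Among the Z-disc anchors, Csrp3, the muscle LIM protein gene whose product binds calcineurin at the Z-disc, rose in G-line HOM (0.69 ± 0.12, adjusted p = 0.00079), G-line HET (0.52 ± 0.12, adjusted p = 0.0177) and A-line HET (0.51 ± 0.12, adjusted p = 0.0177). It went from 773 to 924 CPM in WT to 1255 to 1506 CPM in G-line HOM. Tcap, the telethonin gene, was at -0.80 ± 0.31 in G-line HOM (adjusted p = 0.0856) and fell relative to G-line HET (-1.11 ± 0.31, adjusted p = 0.0405).

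Of 9 inhibitor and scaffold genes, 2 fell in G-line HOM and 0 rose, beside 13.3% and 13.1% of all genes. Akap5, the gene of an anchoring protein that holds calcineurin near the membrane, was at 20.1, 11.01 and 14.8 CPM in WT and 2.16, 2.40 and 6.62 CPM in G-line HOM (-2.06 ± 0.46, adjusted p = 0.00816). Chp1, a calcineurin-like calcium-binding protein that can inhibit calcineurin, went from 60.4 to 69.3 CPM in WT to between 38.6 and 44.5 CPM in the G-line HOM libraries (-0.64 ± 0.12, adjusted p = 0.00147), and it fell in A-line HET as well (-0.50 ± 0.12, adjusted p = 0.0224). Fhl2, whose LIM protein can bind calcineurin, rose in G-line HET (0.54 ± 0.15, adjusted p = 0.0423) and was at -0.035 ± 0.15 in G-line HOM (0.889).

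NFAT kinases return phosphate to NFAT and so oppose calcineurin. Of 8 measured, 1 rose and 1 fell in G-line HOM, near the shares over all genes (13.1% and 13.3%). Dyrk2 rose (0.53 ± 0.12, from 34.1 to 36.8 CPM in WT to 47.4 to 56.3 CPM, adjusted p = 0.00534) and Dyrk1b fell (-0.46 ± 0.13, adjusted p = 0.0196). The other 6, among them Gsk3b (0.13 ± 0.08, adjusted p = 0.246) and Dyrk1a (-0.039 ± 0.08, adjusted p = 0.751), did not pass. Nfat5, the family member that does not depend on calcineurin, rose (0.53 ± 0.09, adjusted p = 0.000708), and Rcan3 was at -0.088 ± 0.11 (adjusted p = 0.61).

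Calmodulin, calcium entry and partner factors gave few calls. Calm2 (0.16 ± 0.09, adjusted p = 0.195) and Calm3 (0.17 ± 0.11, adjusted p = 0.293), which encode calmodulin, did not pass in G-line HOM. Calm3 rose in G-line HET (0.44 ± 0.11, adjusted p = 0.0265). None of 5 calcium entry genes passed in G-line HOM, while Stim1, the calcium store sensor, rose in G-line HET (0.59 ± 0.11, adjusted p = 0.00482) and was lower in G-line HOM than in G-line HET (-0.62 ± 0.11, adjusted p = 0.00362). Of the partner transcription factors, Mef2d fell in G-line HOM (-0.37 ± 0.12, adjusted p = 0.0313), and Gata4 (0.19 ± 0.11, adjusted p = 0.251), Mef2a and Mef2c did not pass.

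**Figure D5:**
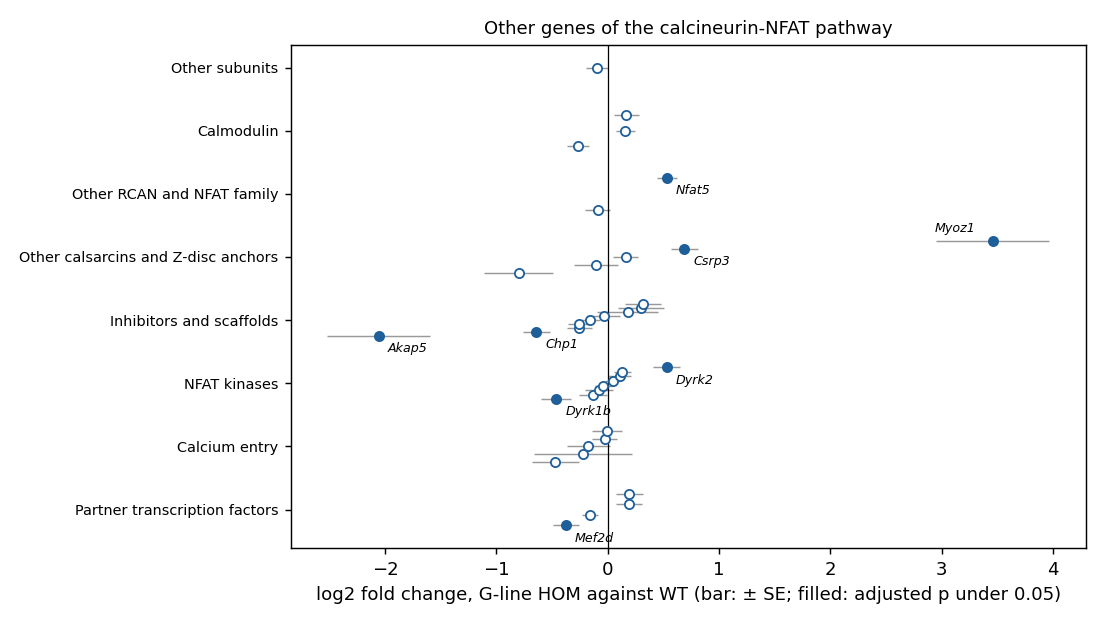
Log2 fold change in G-line HOM against WT (x axis) of the 37 tested genes of the pathway list by role; bars are ± SE, and the 8 filled, named genes had an adjusted p under 0.05. Myoz1 lies farthest to the right at 3.46 and Akap5 farthest to the left at -2.06, with most other genes within 1 of 0.

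The genes most like each changed member over the 13 libraries were sought among 8062 genes by Pearson correlation of log2(CPM + 1), a measure that group differences and clock state enter as well. For Rcan1 these were Dyrk2 (r = 0.93) and the tubulin genes Tuba1b (0.93) and Tubb2a (0.93). For Ppp3r1 they were Cd164 (0.96), Tm9sf2 (0.95) and Canx (0.95), for Myoz2 Rab12 (0.96), Selenot (0.96) and Sh3glb1 (0.95), for Nfatc2 Perm1 (0.93), Tars2 (0.92) and Ppara (0.92), and for Ppp3ca Idua (0.92), Parm1 (0.90) and Ncor1 (0.89).

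The lines and the copy number were compared directly as well. G-line HOM against G-line HET, which uses no WT library, called 3 of the 10 genes, Rcan2, Nfatc2 and Myoz2, all lower, beside 14.6% of all genes (6.22% higher, 8.42% lower). The libraries of these 3 genes did not overlap, as for 35% of all genes. The WT libraries still enter the shared spread of this comparison. With the shared libraries used as A-line HOM, Rcan2 and Myoz2 lost their calls, and Myoz2 did so with them left out as well. A-line HOM against A-line HET called 0 of 10 by edgeR (0 at an unadjusted p under 0.05, 0 with DESeq2), beside 0.0227% of all genes, all higher, and 3 of 10 did not overlap (43.3% of all genes). A-line HET against G-line HET called 0 of 10 by edgeR, beside 0.0284% of all genes (0.0114% higher, 0.0171% lower), and 4 of 10 did not overlap (17.4% of all genes). There were 3 of 10 at an unadjusted p under 0.05 (Rcan2, Nfatc2 and Myoz2, with negative log2 values in the A-line) and 1 with DESeq2. Line, sequencing depth and deposited table cannot be told apart in that last comparison. In each comparison with WT, mutation and deposited table cannot be told apart either, and for the A-line depth goes with them.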

How the data were processed

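Total RNA of mouse left ventricle was sequenced. The authors deposited counts per gene as whole numbers in 3 tables, with no normalization. Per the submitters' processing notes, bcl2fastq 2.20.0.422, Trimmomatic 0.39 and STAR 2.7.4a were used with build GRCm39 (mm39); for the counter, annotation and strand, the setting is not given in the sources used here.

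Groups came from the labels, and 13 distinct libraries entered 1 fit. Genes with at least 0.422 CPM in 3 libraries and 15 counts in all were kept. edgeR 4.0.16 (R 4.3.3, limma 3.58.1) gave TMM factors and robust quasi-likelihood tests (8 residual degrees of freedom, biological variation 17.1%) with Benjamini-Hochberg adjustment over 17588 genes at 0.05. SE is the log2 fold change divided by the root of F. DESeq2 1.42.0 was an alternative, as were other scalings, filters, sample sets and a replicate block. Tested on simulated data for G-line HOM against WT, the fit recovered 54.1% of genes changed by 1 and 88.9% changed by 2 on the log2 scale, with 10 false among 151 calls over 17204 genes. For A-line HOM against WT it recovered less, 38.1% and 74.7%. The simulation changed 200 genes, against 4640 called in G-line HOM against WT, so these shares may not carry over to the real data. No change smaller than 1 was simulated, while all member values against WT but Rcan1 in G-line HOM (1.37) were smaller. Recovery of changes of their size was therefore not measured.

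The members and lists were chosen with earlier results of these data known. The text names all 10 members, the pathway genes called in either HOM group against WT, and the 3 genes most like each member called in G-line HOM (mean of at least 10 CPM). Other pathway genes named with values (Tcap, Fhl2, Stim1, Rcan3, Gsk3b, Dyrk1a, Gata4, Mef2a, Mef2c, Calm2 and Calm3) were chosen after their values were seen. The counts of pathway genes include 1 gene whose values are not reported here. Promoter windows are from RefSeq, build GRCm38.p6, and exon lengths from GENCODE M21 (GRCm38). Of the 10 members, 8 had a window that was used. Nfatc1 and Ppp3ca had none that was used, so matches before these genes were not counted. No coordinates were converted.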

Additional observations from a re-analysis of the deposited data

How the results depend on the processing

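Of 1060 alternative values of the 10 genes, 950 kept their direction and side of the threshold, 62 lost a call, 8 gained one and 40 changed sign, none of the last a call. Only results called in the main fit can lose a call, and most of the 950 had no call there either. The 62 are therefore not a share of all 1060. Single calls held in 3 of 16 alternatives (Ppp3ca, G-line HOM against WT) to 16 of 16 (Nfatc2, G-line HOM against HET). RLE scaling and leaving out mitochondrial ribosomal RNA changed no call of the 10 genes. The cause of the changes below was not tested, and the depth of the A-line libraries and the single A-line HOM library limit all comparisons with them.

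Comparisons are named by their groups. With DESeq2, 1265 genes were called in A-line HOM against WT, 25 in A-line HOM against HET and 252 in A-line against G-line HET, with 1 of the 10. Without the filter on low counts, the last 2 gave 13 and 69 genes. Fitting only the compared groups called 3 of the 10 in G-line HOM, 3 in A-line HOM and 1 in A-line HET against WT, with 2200 genes in G-line HET and 1440 in A-line HOM. The replicate numbers did not pair the samples: the 18 same-number pairs correlated at -0.315 to 0.209, with 4 above 0.1. With the replicate block, 504 genes were called in A-line HOM against WT, 0 in A-line HOM against HET and 1 in A-line against G-line HET; Ppp3ca in G-line HOM against WT (adjusted p = 0.0675) and Myoz2 in G-line HOM against HET (0.066) lost their calls.

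With the shared libraries left out, 2, 0, 0 and 0 of the 10 were called in G-line HOM, G-line HET, A-line HET and A-line HOM against WT, with 2226, 236, 165 and 102 genes, and 0 and 3 genes in A-line HOM against HET and A-line against G-line HET. Used as A-line HOM, they left 1, 0, 0 and 0 of the 10, 1151, 5, 0 and 0 genes, 1 of the 10 and 1251 genes in G-line HOM against HET, and 0 and 1 genes in the last 2. Without the libraries with atrial transcripts, 2 of the 10 were called in G-line HOM against WT, 1 in A-line HET against WT and 1 in G-line HOM against HET, with 651, 1558 and 3 genes in A-line HET against WT, G-line HOM against HET and A-line against G-line HET. Without those with shifted clock genes, 3, 2 and 1 of the 10 were called in G-line HOM, G-line HET and A-line HET against WT and 1 in G-line HOM against HET, with 834 genes in A-line HET against WT, 1531 in G-line HOM against HET, 2 in A-line HOM against HET and 0 in A-line against G-line HET.

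Leaving out 1 library at a time gave 3284 to 4759 genes and 2 to 5 of the 10 in G-line HOM against WT (4640 and 5 with all), 515 to 1155 and 0 to 1 in G-line HET (1322 and 1), 622 to 2038 and 1 to 2 in A-line HET (1400 and 2), and 398 to 616 and 1 in A-line HOM (823 and 1). It gave 1168 to 2796 and 1 to 3 in G-line HOM against HET (2575 and 3), 0 to 4 and 0 in A-line HOM against HET (4 and 0), and 0 to 607 and 0 to 2 in A-line against G-line HET (5 and 0).

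Signs changed for these log2 values. With the replicate block these were Nfatc2 in A-line HOM against WT (-0.054), Rcan2 in A-line HOM against A-line HET (-0.058) and Myoz2 in A-line HOM against A-line HET (-0.028). With the shared libraries left out these were Nfatc2 in G-line HET against WT (-0.038) and Nfatc2 in A-line HOM against WT (-0.18). With them as A-line HOM these were Nfatc2 in G-line HET against WT (-0.032), Nfatc1 in A-line HOM against WT (0.055), Nfatc2 in A-line HOM against WT (-0.29), Ppp3cb in A-line HOM against A-line HET (0.13), Ppp3r1 in A-line HOM against A-line HET (0.29) and Nfatc1 in A-line HOM against A-line HET (0.092). Without atrial libraries these were Nfatc3 in G-line HOM against WT (-0.017), Nfatc2 in A-line HOM against WT (-0.026), Ppp3cb in G-line HOM against G-line HET (0.002), Nfatc4 in G-line HOM against G-line HET (-0.21), Rcan2 in A-line HOM against A-line HET (-0.069), Myoz2 in A-line HOM against A-line HET (-0.091), Rcan1 in A-line HET against G-line HET (0.16) and Nfatc4 in A-line HET against G-line HET (-0.074). Without clock-shifted libraries these were Nfatc3 in G-line HOM against WT (-0.016), Ppp3cb in G-line HOM against G-line HET (0.0001), Nfatc4 in G-line HOM against G-line HET (-0.21), Rcan1 in A-line HOM against A-line HET (0.51), Rcan2 in A-line HOM against A-line HET (-0.0052) and Myoz2 in A-line HOM against A-line HET (-0.042). Leaving out 1 library, the ranges that crossed 0 were Nfatc2 in A-line HOM against WT (-0.029 to 0.18), Nfatc4 in G-line HOM against G-line HET (-0.21 to 0.27), Rcan1 in A-line HET against G-line HET (-0.57 to 0.22), Nfatc3 in G-line HOM against WT (-0.039 to 0.11), Ppp3cb in G-line HOM against G-line HET (-0.14 to 0.0007), Rcan1 in A-line HOM against A-line HET (-0.23 to 0.50), Rcan2 in A-line HOM against A-line HET (-0.070 to 0.091), Myoz2 in A-line HOM against A-line HET (-0.091 to 0.26) and Nfatc4 in A-line HET against G-line HET (-0.075 to 0.26).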
